A study of Danio rerio with 12 samples.

Results

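The genes described here were 48 zebrafish symbols of the coagulation and complement systems, 22 of coagulation and 26 of complement, listed by the function of their products. They were chosen with earlier results of these data known. Of these, 42 had at least 1 row in the deposited tables, 2 of them (c1s as c1s.1 and c6 as c6.2) through a synonym, which gave 44 of 32520 gene rows, 20 for coagulation and 24 for complement. The symbol f7 was held by 3 gene IDs (ENSDARG00000034862, ENSDARG00000075827 and ENSDARG00000100782), which were kept apart. No row was matched to f7i, f9b, proca, procb, c2 or cfi, and these were not analysed under their own symbols. Whether any of the 3 IDs under f7 is f7i could not be worked out. RNA sequencing had been done on whole larvae at 120 hours post fertilization, in 6 pools of elmo3+/+ and 6 pools of elmo3-/- larvae, with 30 larvae in each pool. The elmo3-/- line carries a frameshift deletion made with CRISPR/Cas9 in elmo3, which codes for a cytoplasmic adaptor of the Rac-activating Dock proteins, and it was made in Tg(fli1:EGFP), a line that carries EGFP in its endothelial cells. As far as the methods tell, both genotypes share that transgene. The labels do not say whether the pools came from separate clutches, so p-values measure only the spread between these pools.

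Coagulation is a cascade of serine proteases made mainly in the liver, in which tissue factor and factor VII activate factor X, factor X turns prothrombin into thrombin, and thrombin turns soluble fibrinogen into fibrin. Complement is a second plasma cascade, in which the classical, lectin and alternative pathways meet at the cleavage of C3, and C5 to C9 then form a pore in the target membrane. Hepatocytes secrete most proteins of both systems, while tissue factor, von Willebrand factor, C1q and factor D come partly or wholly from other cells.

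The libraries were of like depth, with 16851426 to 17577126 counts each, so that 3 counts corresponded to 0.171 to 0.178 CPM (counts scaled to library size), a floor that covers counting error only. The targeted transcript, elmo3, had 44 to 99 counts per elmo3+/+ pool and 45 to 91 counts per elmo3-/- pool, and the fitted genotype difference was 0.03 on the log2 scale (standard error, SE, 0.19, edgeR, adjusted p = 0.967), so its abundance did not check the genotype labels. Mitochondrially encoded genes took 6.59 to 8.99% of the counts in elmo3+/+ and 7.28 to 10.3% in elmo3-/-. Apart from pool 1, the elmo3+/+ pools had 6.59 to 7.19%, below every elmo3-/- pool, so this share nearly separated the genotypes. Over all 21127 genes tested, 21 passed an adjusted p-value of 0.05.

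The levels of the members were first compared per transcript length, in TPM, a unit in which a count is divided by the length of its transcript and every pool has an equal sum. The highest was cfd, which codes for factor D, the protease that cleaves factor B, at 52.9 ± 14.1 TPM in elmo3+/+ and 41.0 ± 8.95 TPM in elmo3-/- (mean ± SD, n = 6 each). It was followed by f10, which codes for factor X, at 37.6 ± 8.67 and 29.2 ± 2.44 TPM. The fibrinogen chain fgb (24.2 ± 14.4 TPM), the pore component c9 (20.3 ± 13.9 TPM) and the other fibrinogen chains fga (18.8 ± 10.1 TPM) and fgg (3.38 to 29.1 TPM) came next in elmo3+/+. These 4 neighbours did not differ beyond their spread, and the ranges of cfd and f10 overlapped as well. In elmo3-/- the pools of f10, at 26.0 to 32.7 TPM, lay above those of fgb, at 4.1 to 20.7 TPM.

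At the low end were f9a and the starters of the classical pathway. For f9a, which codes for a factor IX, CPM reached from 0.120 to 0.855 in elmo3+/+ and from 0.065 to 0.471 in elmo3-/-. The subunits of C1q were also low, with c1qa between 0.109 and 0.601 CPM and c1qb without a count in 3 of the 12 pools, which allows up to 3 counts there. The C1 proteases c1r and c1s.1 had 0.112 to 0.492 and 0.115 to 0.455 CPM. These 6 rows (f9a, c1qa, c1qb, c1qc, c1r and c1s.1) did not pass the filter on low counts and had no test, so that 38 of the 44 rows were tested, 19 of each system.

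To see whether the loss of Elmo3 came with a different level of these transcripts, each row was tested within a fit across all genes (edgeR quasi-likelihood test, Benjamini-Hochberg adjustment). None of the 38 rows passed an adjusted p-value of 0.05, against 0.0994% of all genes tested, and the smallest adjusted p-value of a member was 0.489. At an unadjusted p-value under 0.05, 23 rows were lower in elmo3-/-, where 4.95% of all genes were, and 0 rows were higher, where 4.58% of all genes were. The fitted log2 fold change was below 0 in 34 rows and above 0 in 4 rows (c4, f3a, f3b and pros1). Of all genes, 48.9% were below 0, and the median was -0.79 over the members and 0.00 over all genes. The signs of f3a, f3b and pros1 turned in other scalings or units or without single pools. That of c7b, among the 34, turned without single pools. The median over all genes was itself below 0 under total count scaling (-0.048) and on TPM values (-0.062 and -0.076). With the level of the liver transcript fabp10a as a covariate, described below, 23 of the 38 rows kept their sign. With the DESeq2 test the members past the threshold were also 0. In RNA of whole larvae, fewer cells of a type and less RNA per cell cannot be told apart.

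These counts moved with single pools. Without elmo3+/+ pool 4 or without pool 5 the members at an unadjusted p-value under 0.05 were 11 in each case, and without elmo3+/+ pool 2 they were 15. Of all genes, in either direction, 6.07%, 6.10% and 5.72% were then at this limit, against 9.52% with all pools. On log2(TPM + 1) and log2(TPM + 0.1) values, tested with limma, the members at this limit were 14 and 12, with 9.06% and 8.95% of all genes. In no row did the genotypes stand apart without overlap, where 0.431% of all genes did.

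**Figure D1:**
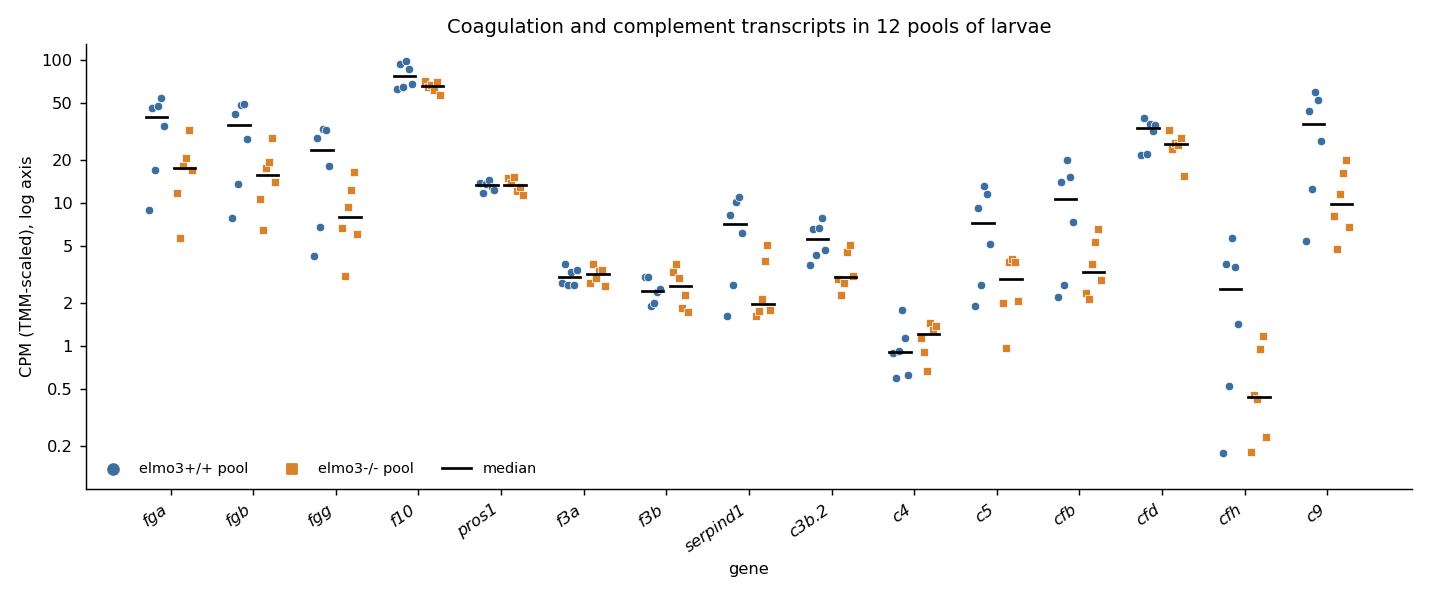
CPM on a log axis of 15 members in the 6 elmo3+/+ pools (circles) and the 6 elmo3-/- pools (squares), with bars at the medians. For fga, fgb, fgg, serpind1, c5, cfb, cfh and c9 the elmo3+/+ pools spread widely and 2 or 3 of them lie at or below the highest elmo3-/- pool, while pros1, f3a and f3b lie at the same level in both genotypes.

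The 3 chains of fibrinogen, the precursor of the fibrin clot, moved as one. The CPM of fga ranged from 8.96 to 54.6 with a median of 40.4 in elmo3+/+ and from 5.72 to 32.5 with a median of 17.7 in elmo3-/-. For fgb it ranged from 7.94 to 49.5 with a median of 35.1 in elmo3+/+ and from 6.50 to 28.6 with a median of 15.9 in elmo3-/-. For fgg it ranged from 4.27 to 32.9 with a median of 23.4 in elmo3+/+ and from 3.12 to 16.6 with a median of 8.05 in elmo3-/-. In each chain, pools 1 and 3 of elmo3+/+ lay among the elmo3-/- pools and pools 2, 4 and 5 lay above all of them, while pool 6 was above all of them for fga and fgg. The fitted levels were 1.97-fold lower in elmo3-/- for fga (log2 fold change -0.98, SE 0.40, adjusted p = 0.499, edgeR), 1.96-fold lower for fgb (-0.97, SE 0.41, adjusted p = 0.499) and 2.27-fold lower for fgg (-1.18, SE 0.46, adjusted p = 0.499). Summed over the chains, fibrinogen transcripts made up 13.3 to 95.2 TPM in elmo3+/+ and 8.87 to 51.1 TPM in elmo3-/-.

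Among the vitamin K-dependent factors, whose glutamates are carboxylated in the liver, the pools spread unequally. Prothrombin, coded by f2, had 4.27 to 29.1 CPM in elmo3+/+ and 2.93 to 15.8 CPM in elmo3-/- (log2 fold change -1.17, SE 0.46, adjusted p = 0.499, edgeR). It followed fibrinogen from pool to pool. Factor VII is the partner of tissue factor. The 3 IDs under the symbol f7 had median CPM of 6.08, 6.33 and 6.06 in elmo3+/+ and of 3.54, 3.43 and 2.99 in elmo3-/-. Their log2 fold changes were -0.64, -0.76 and -0.79 in the order in which the IDs are given above, and which of them corresponds to which zebrafish copy of the gene was not assigned. The counts of ENSDARG00000075827 were not whole in most pools, so its level is less certain than those of the other IDs.

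In contrast to these, f10 and pros1 varied little. The CPM of f10, for factor X, ranged from 63.4 to 99.3 with a median of 77.7 in elmo3+/+ and from 57.4 to 71.2 with a median of 65.8 in elmo3-/-. Pools 2, 4 and 5 of elmo3+/+ lay above all elmo3-/- pools, and the other 3 lay among them. Its log2 fold change was -0.28 (SE 0.11, adjusted p = 0.499, edgeR), a 1.22-fold lower level. The CPM of pros1, which codes for protein S, the cofactor of activated protein C, ranged from 11.8 to 14.6 with a median of 13.4 in elmo3+/+ and from 11.4 to 15.3 with a median of 13.4 in elmo3-/-. These ranges overlapped throughout, and the log2 fold change of 0.02 (SE 0.09, adjusted p = 0.947, edgeR) had a 95% interval of -0.17 to 0.22 and turned sign under total count scaling, on TPM values and without elmo3+/+ pool 2, elmo3-/- pool 1 or elmo3-/- pool 3.

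Tissue factor, the membrane protein that starts clotting, is coded by a pair of genes in zebrafish, f3a and f3b. The CPM of f3a ranged from 2.68 to 3.76 with a median of 3.05 in elmo3+/+ and from 2.66 to 3.77 with a median of 3.19 in elmo3-/-. For f3b it ranged from 1.92 to 3.07 with a median of 2.45 in elmo3+/+ and from 1.73 to 3.77 with a median of 2.65 in elmo3-/-. In both genes the elmo3-/- range took in the whole elmo3+/+ range. The log2 fold changes were 0.03 for f3a (SE 0.14, adjusted p = 0.963, 95% interval -0.27 to 0.32, edgeR) and 0.09 for f3b (SE 0.21, adjusted p = 0.909, 95% interval -0.35 to 0.54, edgeR). The sign of f3a turned under total count scaling, on TPM values and without elmo3+/+ pool 1, 3 or 5 or elmo3-/- pool 2, and that of f3b turned on TPM values and without elmo3-/- pool 2.

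The plasma cofactors were read side by side, without a test between them. Factor V (f5), the cofactor of activated factor X, had 1.38 to 13.3 CPM in elmo3+/+ and 1.56 to 6.48 CPM in elmo3-/- (log2 fold change -1.01, SE 0.45, adjusted p = 0.511, edgeR). Factor VIII (f8), its counterpart for factor IX, had 0.782 to 2.62 and 0.845 to 1.74 CPM, and von Willebrand factor (vwf), which carries factor VIII and is known from endothelium and thrombocytes, had 0.967 to 2.79 and 0.750 to 1.41 CPM. The log2 fold changes were -0.26 for f8 (SE 0.31, adjusted p = 0.803, edgeR) and -0.49 for vwf (SE 0.27, adjusted p = 0.580, edgeR). Pools 2 and 4 of elmo3+/+ held the highest levels of f8 and vwf, whereas for f5 they were pools 4 and 5. The A subunit of factor XIII (f13a1b), which crosslinks fibrin, was among the steadiest members, at 7.90 to 9.26 CPM in elmo3+/+ and 5.48 to 9.78 CPM in elmo3-/- (log2 fold change -0.10, SE 0.12, edgeR).

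All 4 inhibitors and fibrinolysis genes were at an unadjusted p-value under 0.05 and lower in elmo3-/-, where 4.95% of all genes were, and none passed the threshold. Heparin cofactor II (serpind1), a thrombin inhibitor, ranged from 1.62 to 11.1 CPM with a median of 7.21 in elmo3+/+ and from 1.63 to 5.07 CPM with a median of 1.97 in elmo3-/-. Pools 2, 4, 5 and 6 of elmo3+/+ lay above all elmo3-/- pools, and pool 1 was level with the lowest of them. The fitted level was 2.45-fold lower (log2 fold change -1.29, SE 0.42, adjusted p = 0.489, edgeR). Antithrombin (serpinc1), the main plasma inhibitor of thrombin and factor X, was at -1.04, plasminogen (plg), the precursor of the protease that dissolves fibrin, at -1.05, and the plasmin inhibitor serpinf2b at -0.80 on the log2 scale.

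**Figure D2:**
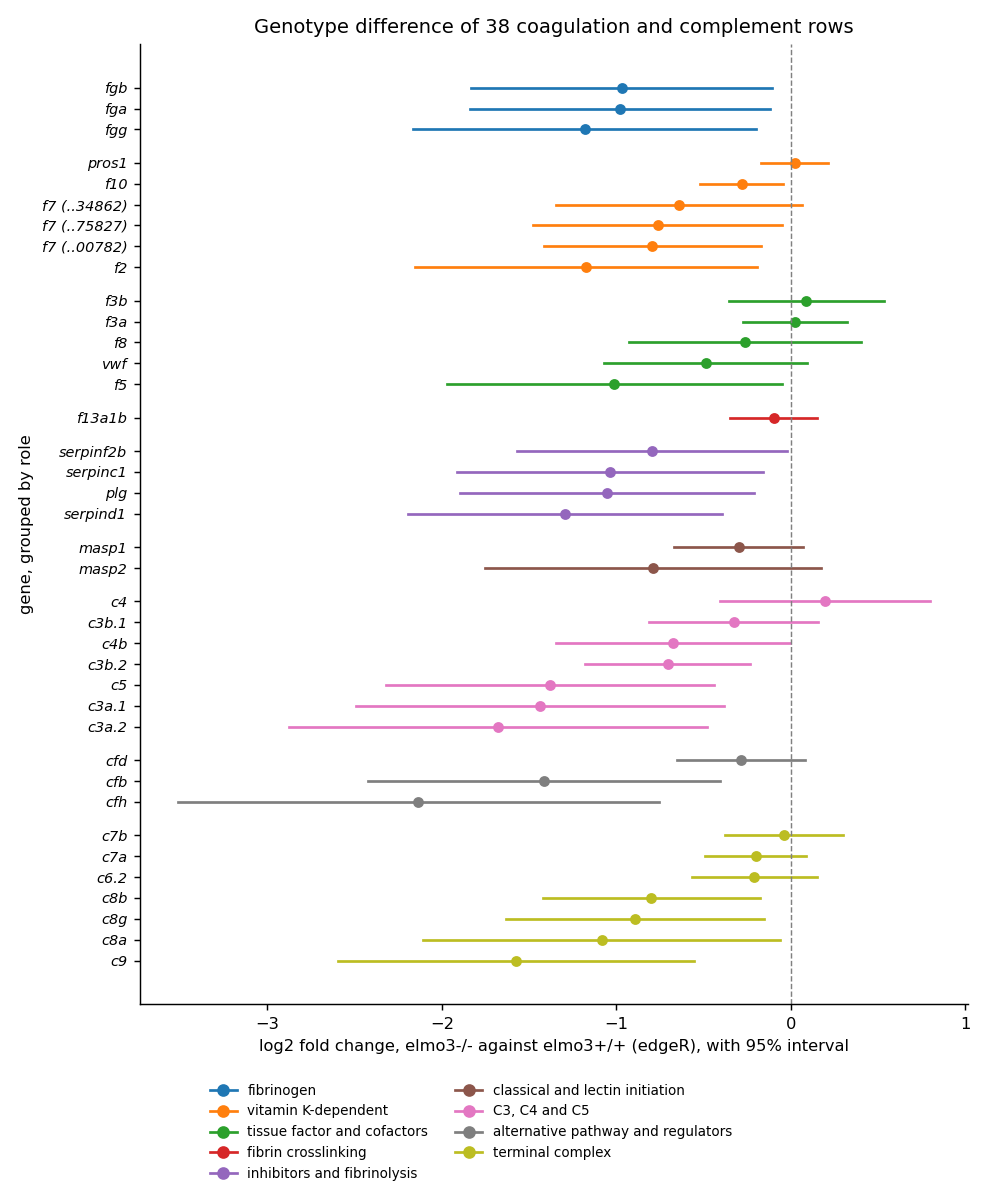
Log2 fold change of elmo3-/- against elmo3+/+ (points) with its 95% interval (lines) for the 38 tested rows, grouped and coloured by role, the 3 IDs of f7 being marked by the last digits of their IDs. Of the points 34 lie below 0 and 4 above it (c4, pros1, f3b and f3a), and the widest interval is that of cfh. The signs of pros1, f3b, f3a and c7b turned in other scalings or units or without single pools. With the fabp10a level as a covariate, 23 of the 38 rows kept their sign.

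Of the listed members that start complement, only the mannose-binding lectin associated proteases masp1 and masp2 were abundant enough to be tested. For masp2 the CPM ranged from 0.601 to 3.99 in elmo3+/+ and from 0.520 to 2.24 in elmo3-/- (log2 fold change -0.79, SE 0.45, adjusted p = 0.588, edgeR). For masp1 it ranged from 3.19 to 3.78 in elmo3+/+ and from 1.83 to 3.84 in elmo3-/- (log2 fold change -0.30, SE 0.17, adjusted p = 0.595, edgeR). Of the elmo3-/- pools of masp1, 4 lay below the narrow elmo3+/+ range and pool 2 lay above it.

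C3 is the component at which the pathways meet, and zebrafish carry several copies of its gene. The copy c3a.1 ranged from 3.13 to 56.1 CPM in elmo3+/+, a 17.9-fold spread, and from 5.40 to 16.5 CPM in elmo3-/- (log2 fold change -1.44, SE 0.50, adjusted p = 0.492, edgeR). The copy c3a.2 ranged from 1.2 to 12.7 CPM and from 0.693 to 5.54 CPM (-1.68, SE 0.56, adjusted p = 0.489, edgeR). The copies c3b.1 and c3b.2 spread much less. The CPM of c3b.2 ranged from 3.73 to 7.86 with a median of 5.66 in elmo3+/+ and from 2.28 to 5.12 with a median of 3.04 in elmo3-/-, and 4 of the elmo3-/- pools lay below every elmo3+/+ pool. Its fitted level was 1.63-fold lower (log2 fold change -0.71, SE 0.22, adjusted p = 0.489, edgeR), and that of c3b.1 was 1.25-fold lower (-0.33, SE 0.23, adjusted p = 0.642, edgeR). The counts of c3b.1 and c3b.2 were not whole in any pool and those of c3a.2 not in most, so their single levels are less certain than that of c3a.1, whose counts were whole. Counts were also not whole in any pool for serpind1, plg, masp1, f13a1b and c8b, and not in most for cfh, c4b and c6.2. How far this moved their levels was not tested.

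Of the related C4 and C5 genes, c5 went with c3a.1 and c4 did not. C5 is the component whose cleavage starts the pore, and c5 ranged from 1.92 to 13.3 CPM with a median of 7.25 in elmo3+/+ and from 0.975 to 4.05 CPM with a median of 2.97 in elmo3-/-. Pools 1 and 3 of elmo3+/+ lay among the elmo3-/- pools and the other 4 above them, and the fitted level was 2.60-fold lower (log2 fold change -1.38, SE 0.44, adjusted p = 0.489, edgeR). C4 is a part of the convertase of the classical and lectin pathways, and c4 ranged from 0.599 to 1.80 CPM with a median of 0.917 in elmo3+/+ and from 0.675 to 1.46 CPM with a median of 1.22 in elmo3-/-. These ranges overlapped, and the log2 fold change was 0.20 (SE 0.28, adjusted p = 0.840, edgeR) with a 95% interval of -0.40 to 0.80. For its relative c4b the log2 fold change was -0.67 (SE 0.32, adjusted p = 0.523, edgeR).

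The alternative pathway held the widest spread, that of cfh, and a much narrower one, that of cfd. Factor H, which protects host cells by taking apart the C3 convertase, is coded by cfh, which ranged from 0.180 to 5.73 CPM with a median of 2.51 in elmo3+/+ and from 0.181 to 1.18 CPM with a median of 0.442 in elmo3-/-. The elmo3+/+ pools differed by 31.8-fold among themselves, pool 3 lay among the elmo3-/- pools, pool 1 was level with the lowest of them, the other 4 lay above them, and the lowest pools were close to the floor of 3 counts. Its fitted level was 4.39-fold lower (log2 fold change -2.13, SE 0.65, adjusted p = 0.489, edgeR), with a 95% interval of the ratio from 0.0875 to 0.594.

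Factor B, the protease of the alternative convertase, is coded by cfb, which ranged from 2.22 to 19.9 CPM with a median of 10.8 in elmo3+/+ and from 2.15 to 6.66 CPM with a median of 3.32 in elmo3-/-. Here too elmo3+/+ pools 1 and 3 were low and the other 4 lay above all elmo3-/- pools, and the fitted level was 2.67-fold lower (log2 fold change -1.41, SE 0.47, adjusted p = 0.489, edgeR). For cfd, the CPM ranged from 21.9 to 39.3 with a median of 33.6 in elmo3+/+ and from 15.5 to 32.6 with a median of 26.1 in elmo3-/-. Its pools 1 and 3 of elmo3+/+ were again the lowest of their genotype, but the log2 fold change was -0.29 (SE 0.17, adjusted p = 0.603, edgeR), and its spread within genotypes was smaller than that of cfb.

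The components of the membrane pore fell into a steady and a variable group. Steady were c6.2, c7a and c7b, whose products are added to C5b one after the other, with log2 fold changes of -0.21, -0.20 and -0.04 and standard errors of 0.17, 0.14 and 0.16. That of c7b was above 0, at most 0.037, without elmo3+/+ pool 4 or 6 or elmo3-/- pool 1 or 3. Variable were c8a, c8b and c8g, the chains of C8, with log2 fold changes of -1.08, -0.80 and -0.89 and standard errors of 0.48, 0.29 and 0.35 (edgeR, adjusted p = 0.509, 0.499 and 0.499). The last component, c9, which polymerizes into the wall of the pore, ranged from 5.41 to 60.1 CPM with a median of 35.9 in elmo3+/+ and from 4.81 to 20.2 CPM with a median of 9.88 in elmo3-/-. Pools 1 and 3 of elmo3+/+ lay among the elmo3-/- pools and the other 4 above them, and the fitted level of c9 was 2.98-fold lower (log2 fold change -1.57, SE 0.48, adjusted p = 0.489, edgeR).

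The pools of 1 genotype thus differed in the same order for many members. Taking the median difference from the mean of the 12 pools over the 38 rows, the highest pools were pools 5, 4, 2 and 6 of elmo3+/+ (1.07, 1.04, 0.76 and 0.45 on the log2 scale), and pool 5 was the highest of elmo3-/- (0.34). Pools 3 and 1 of elmo3+/+ stood at -0.38 and -0.79, within the elmo3-/- range of -0.95 to 0.34. The highest value of a row was in elmo3+/+ pool 2, 4 or 5 for 32 rows, these 3 pools all lay above every elmo3-/- pool for 25 rows, and elmo3+/+ pool 1 lay below the elmo3-/- median for 31 rows. The pools named here are those that stood out in these same rows. The share of all genes was not worked out for these counts, so they only describe the rows. The SD of log2 CPM within genotypes was at least 0.5 for 24 of the 38 rows and for 8.87% of all genes.

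**Figure D3:**
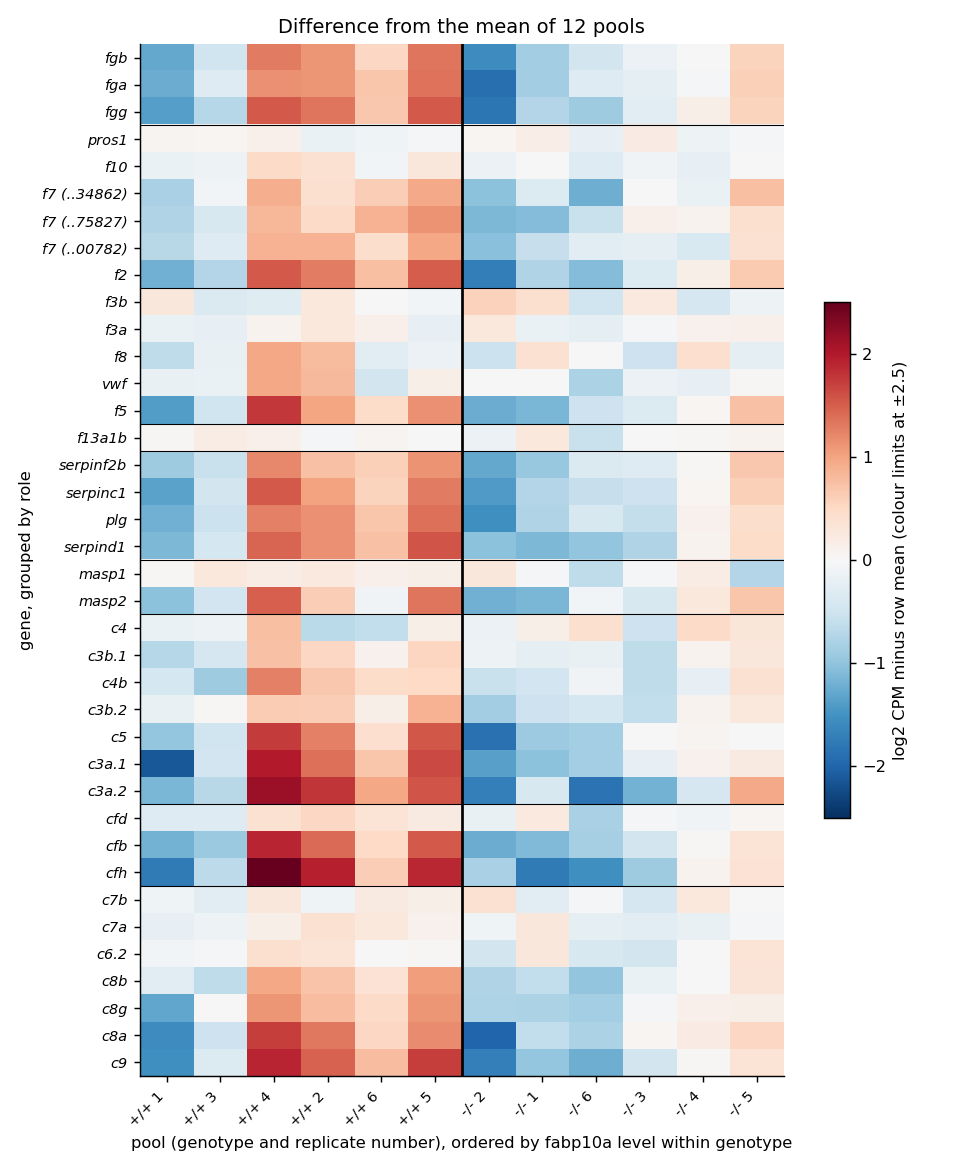
Log2 CPM minus the mean over 12 pools for the 38 tested rows (grouped by role) in each pool, with pools ordered within genotype by the level of the liver transcript fabp10a, lowest at the left. Fibrinogen, f2, f5, the serpins, plg, c3a.1, c3a.2, c5, cfb, cfh, c8a, c8b, c8g and c9 change colour together from pool to pool, and pros1, f3a, f3b, f13a1b, masp1, c7a, c7b and c6.2 stay pale.

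To describe which members went together, log2 CPM was correlated between rows over the 12 pools after the mean of each genotype was subtracted. The median Pearson r was 0.61 over the 703 pairs of members and -0.001 over all pairs of genes tested, and r was at least 0.8 in 39.8% of the pairs of members and in 0.955% of all pairs. The median r was 0.56 within coagulation, 0.65 within complement and 0.61 across both systems. The highest r was 0.996, between fgg and f2, and the lowest was -0.62, between f3b and c4. The rows with the lowest median r with the other members were f3b (-0.29), pros1 (-0.20), masp1 (-0.13) and f13a1b (0.09), and the highest were serpinc1 (0.91), cfb (0.91) and serpind1 (0.91). All pairs share the same 12 libraries, so these values describe the pools and not independent measurements.

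For a set of 8 pairs of genes the correlation was tested by permutation with 100000 resamples, two-sided, with Benjamini-Hochberg adjustment over the 8. The pairs, also those with fabp10a below, were chosen with earlier results of these data known. Their p-values thus describe these pools and are no independent test. The fibrinogen chains fga and fgb had r = 0.989 and rho = 1 (permutation p = 1e-05, the smallest these resamples can give, adjusted 2.67e-05), and r was 0.987 without the 2 pools farthest from the median. For fga with fgg r was 0.970 and rho was 0.986, and for fgb with fgg r was 0.989 and rho was 0.986, both with the same p-values (permutation test). The C8 chains c8a and c8b had r = 0.860 and rho = 0.895 (permutation p = 0.00033, adjusted 0.000377), and c8a and c8g had r = 0.920 and rho = 0.888 (permutation p = 2e-05, adjusted 3.2e-05). They were 0.962 and 0.908 without the 2 farthest pools. The weakest was f2 with f10, with r = 0.73 and rho = 0.748 (permutation p = 0.00787, adjusted 0.00787), which was 0.526 without the 2 farthest pools, 0.877 within elmo3+/+ and 0.339 within elmo3-/-, so that it rested on a few pools. In the RefSeq order of assembly GRCz12tu, c8a and c8b are next neighbours, 1 gene lies between fga and fgb, and c3b.1 and c3b.2 are next neighbours with r = 0.816. The counts of c8b, c3b.1 and c3b.2 were not whole in any pool. The r of c8a with c8b and of c3b.1 with c3b.2 is thus less certain than that of rows with whole counts. Next neighbours did not always go together, since c7b and c6.2 had an r of 0.03. None of the 46 listed symbols that this table places lies on the chromosome of elmo3.

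The level of the members was then set beside fabp10a, which codes for the fatty acid binding protein of zebrafish hepatocytes and is the usual marker of the larval liver. The TPM of fabp10a ranged from 501 to 2251 in elmo3+/+ and from 282.7 to 1033 in elmo3-/- (log2 fold change -0.92, SE 0.31, adjusted p = 0.490, edgeR), and it was lowest in pools 1 and 3 within elmo3+/+ and in pools 2 and 1 within elmo3-/-. The correlation of fgb with fabp10a was r = 0.928 and rho = 0.811 (permutation p = 2e-05, adjusted 3.2e-05), with 0.828 without the 2 farthest pools, 0.912 within elmo3+/+ and 0.973 within elmo3-/-. For c9 it was r = 0.869 and rho = 0.706 (permutation p = 0.00012, adjusted 0.00016), with 0.720 without the 2 farthest pools.

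**Figure D4:**
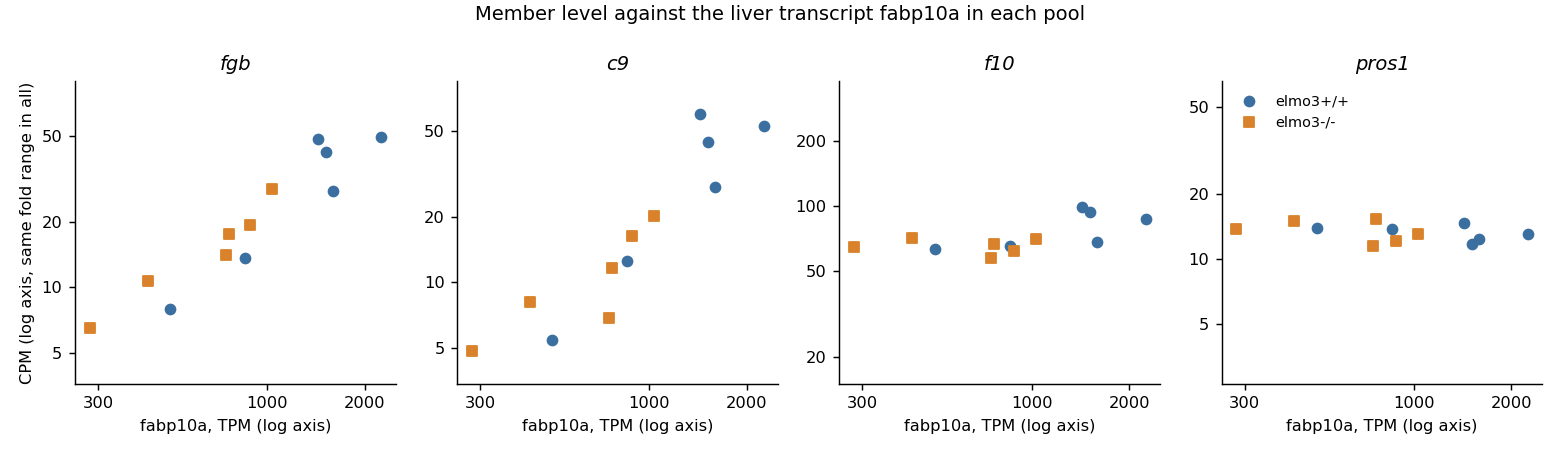
CPM of fgb, c9, f10 and pros1 against the TPM of fabp10a in each of the 12 pools, all axes logarithmic, the CPM axes covering the same fold range. In fgb and c9 both genotypes lie along one rising band, f10 rises only in 3 elmo3+/+ pools (up to 99.3 CPM), and pros1 stays between 11.4 and 15.3 CPM.

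In a model with genotype and the log2 level of fabp10a, which was added after seeing the data, 21 of the 38 rows had a positive slope on fabp10a past an adjusted p-value of 0.05 and 0 rows had a negative one, against 1.68% and 0.833% of all genes. The rows with a slope were the 3 fibrinogen chains, all 4 inhibitors and fibrinolysis genes, f2, the 3 IDs of f7, f5, masp2, c3a.1, c3b.2, c5, cfb, c8a, c8b, c8g and c9. The slope was steepest among these for c3a.1 (1.43), c9 (1.41) and fgg (1.40), in log2 CPM per log2 unit of fabp10a, and lowest for c3b.2 (0.53). The largest slope of all, 1.58 for cfh, did not pass the threshold (adjusted p = 0.0965, edgeR). The slope did not pass for f10 (0.13), cfd (0.20), pros1 (-0.08), f3a (0.03), f3b (-0.26) or f13a1b (-0.02) either.

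With this term in the model, 0 of the 38 rows were at an unadjusted p-value under 0.05 for genotype in either direction, where 1.34% of all genes were lower and 1.68% higher, and 0 passed the threshold, which 0.0521% of all genes did. The median log2 fold change of the members was then -0.040. The fold change of c9 went from -1.57 to -0.23, that of c5 from -1.38 to -0.23 and that of cfh from -2.13 to -0.70, and those of fga, fgb and fgg went to 0.20, 0.20 and 0.13. That of f10 went from -0.28 to -0.15, and by contrast that of masp1 went from -0.30 to -0.43. As fabp10a is read from the same 12 libraries and 4 elmo3+/+ pools had more of it than any elmo3-/- pool, the genotype and the fabp10a level could not be fully told apart.

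**Figure D5:**
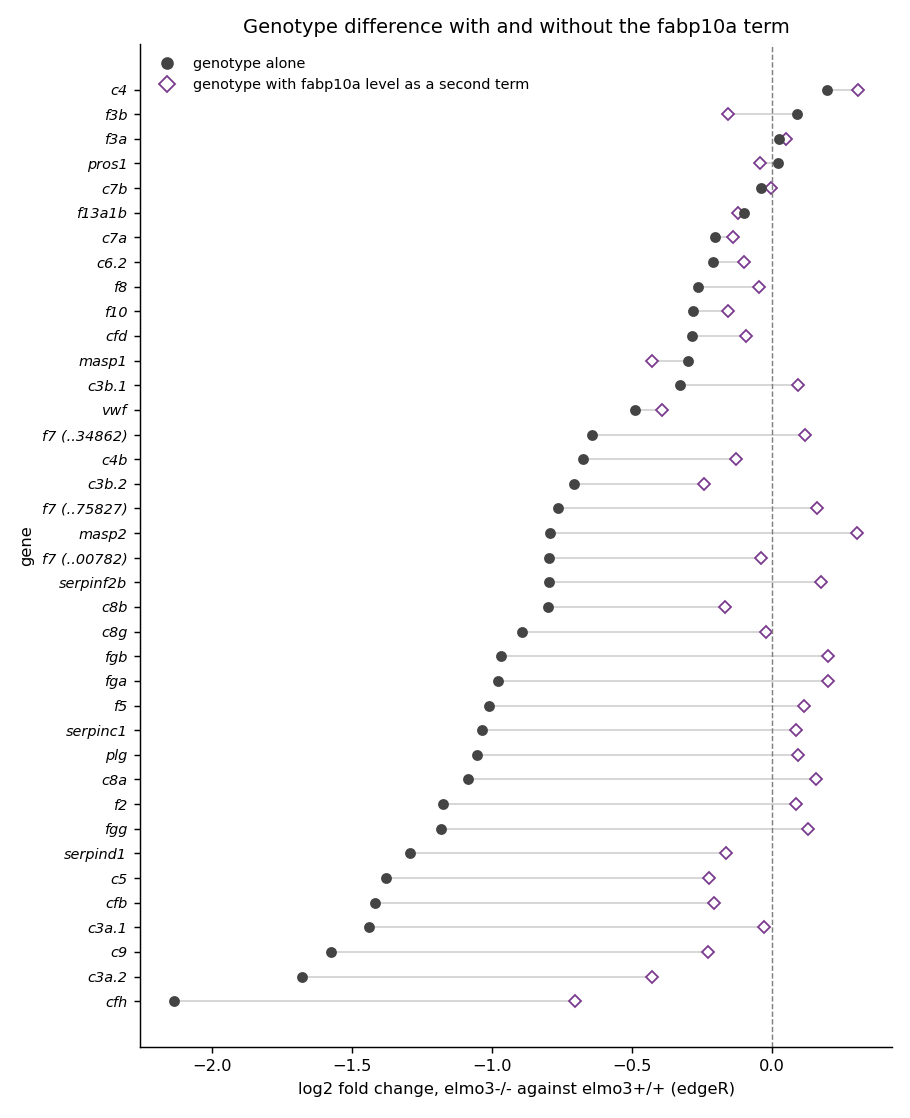
Log2 fold change of elmo3-/- against elmo3+/+ for the 38 tested rows from the model with genotype alone (filled circles) and from the model with genotype and the fabp10a level (open diamonds). The median of the diamonds is -0.040, the lowest being cfh at -0.70, and f3b goes from 0.09 to -0.16.

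Other genes of both systems were taken from lists of related factors, to be read against the 4.95% of all genes that were lower and the 4.58% that were higher at an unadjusted p-value under 0.05. Of 27 other coagulation and fibrinolysis rows tested, 0 passed the threshold, and 10 were lower and 1 higher at an unadjusted p-value under 0.05. The lowest p-value was that of serpina10b, for the inhibitor that uses protein Z as its cofactor, with 10.2 to 22.9 TPM in elmo3+/+ and 6.82 to 12.3 TPM in elmo3-/- (log2 fold change -0.87, SE 0.21, adjusted p = 0.349, edgeR). In serping1, which codes for the inhibitor of the C1 proteases, the log2 fold change was -1.26 (SE 0.40, adjusted p = 0.489, edgeR). Protein Z itself (proza) was at 0.15 (SE 0.07, adjusted p = 0.520, edgeR). Of 19 other complement rows tested, 0 passed, and 5 were lower and 0 higher at that limit. Among them were the factor H-like gene cfhl2 (log2 fold change -1.33, SE 0.38) and the C3 copy c3a.6 (-1.03, SE 0.35), while the inhibitor of the pore cd59 was at 0.20 (SE 0.11). Rows under the family symbols F9 (ENSDARG00000029493) and PROC (ENSDARG00000038258 and ENSDARG00000093079) could not be assigned to a listed symbol, and their log2 fold changes were -0.66, -0.31 and -1.17.

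Marker lists of the cell types in a whole larva were read beside these values. Of 19 hepatocyte genes tested, 12 were lower and 0 higher at an unadjusted p-value under 0.05, where 4.95% and 4.58% of all genes were, and their summed level was 1627 to 6626 TPM in elmo3+/+ and 1152 to 3853 TPM in elmo3-/-. Exocrine pancreas genes had 3 of 12 lower, with 468 to 2003 and 444 to 1380 TPM, and enterocyte genes had 3 of 8 lower, with 633 to 1562 and 413 to 1334 TPM. At any p-value, 18 hepatocyte genes were below 0 and 1 above it, and all 12 exocrine and all 8 enterocyte genes were below 0. The median log2 fold changes of these lists were -0.95, -0.65 and -0.51, and 48.9% of all genes were below 0. Macrophage genes had 4 of 10 lower, with 17.7 to 51.1 and 25.0 to 40.0 TPM. Whatever the p-value, 6 of these 10 were below 0 and 4 above it. The lowest p-values were those of ptprc (log2 fold change -0.67) and coro1a (-0.50), genes that other white blood cells also express. On the other side, grn1 was at 0.35 and held 4.01 to 25.9 and 13.8 to 19.8 TPM of the sum. The listed genes csf1ra (-0.20, SE 0.22), csf1rb (-0.34, SE 0.33) and marco (0.10, SE 0.26) were not at an unadjusted p-value under 0.05 (edgeR). Endothelial genes had 1 of 13 lower (73.9 to 121.6 and 70.6 to 89.2 TPM) and thrombocyte genes 1 of 4 (5.01 to 8.27 and 5.34 to 7.44 TPM), and 0 genes of these last lists were higher. At any p-value, 10 endothelial genes were below 0 and 3 above it, and 3 thrombocyte genes were below 0 and 1 above it. The lower endothelial gene was fli1, which alone held 42.1 to 77.2 and 33.5 to 44.1 TPM, so the endothelial sum mostly describes fli1. No list member passed the threshold, and no matched marker of these 6 lists was at 0 in all pools. A positive slope on fabp10a past the threshold was found for 11 of the 12 exocrine and 5 of the 8 enterocyte genes, against 1.68% of all genes. It was found for 14 of the 19 hepatocyte genes, a list that holds fabp10a itself. Of the macrophage genes 1 had such a slope, and 0 of the endothelial and thrombocyte genes had one. The mitochondrial share was highest in elmo3-/- pool 2 (10.3%), the lowest pool for the members, and its part in the result was not tested, nor was that of the other cell types.

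Acute phase and inflammation genes, many of which the liver also makes, were listed as well. Of 11 tested, 6 were below 0 and 5 above it, with a median log2 fold change of -0.10, and 2 were lower and 0 higher at an unadjusted p-value under 0.05, against the same shares of all genes. The C-reactive protein relative crp2 was at -1.72 (SE 0.64, adjusted p = 0.499, edgeR), and il1b, a cytokine of inflammation, and hp, which codes for the hemoglobin-binding haptoglobin, were both at 0.46 (adjusted p = 0.543, edgeR). Among liver transcription factors hnf4a, a regulator of hepatocyte genes, had 3.52 to 9.31 TPM in elmo3+/+ and 3.16 to 5.30 TPM in elmo3-/- (log2 fold change -0.50, SE 0.21, adjusted p = 0.499, edgeR), and onecut1 was at 0.31 (SE 0.12, adjusted p = 0.499, edgeR). Of the 11 tested, 2 were lower and 1 higher at an unadjusted p-value under 0.05, where 4.95% and 4.58% of all genes were. The slope on fabp10a passed the threshold for 0 of them, and for 1.68% (positive) and 0.833% (negative) of all genes. That count is near these shares and sets the list apart from all genes in no way, and its median slope was 0.27.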

How the data were processed

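RNA of 12 pools of 30 larvae was sequenced on a BGISEQ-500. Per the submitters' processing notes, reads were trimmed with Trim Galore 0.6.4 and quantified with kallisto against GRCz11. The authors deposited estimated counts (expected counts, 63% of them whole) and TPM per gene. Symbols came from a table of Ensembl IDs (29201 of 32520 IDs) matched without regard to capitals, and from RefSeq synonyms and gene order (GRCz12tu, no coordinates used). Estimated counts were rounded to whole numbers and tested with edgeR 4.0.16 in R 4.3.3 (quasi-likelihood test, TMM scaling, filterByExpr, genotype as the only term, Benjamini-Hochberg adjustment over 21127 genes). CPM are TMM-scaled, and log2 CPM used a prior count of 2. Log2 fold changes above 0 mean a higher level in elmo3-/-.

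The alternatives were DESeq2 1.42.0, limma 3.58.1 on log2(TPM + 1) and log2(TPM + 0.1), other scalings and filters, a replicate block, each pool left out in turn and, added after seeing the data, the fabp10a level as a covariate. The edgeR fit was tested on simulated data. Values per pool are given for the 6 members lowest in p-value on each side of 0 (only 4 were above it), the fibrinogen chains and the 6 members with the highest mean TPM in elmo3+/+, and for other members in shorter form. Of the other lists, the 2 genes lowest in p-value on each side of 0 could be named, and csf1ra, csf1rb and marco were named besides. The members, lists and the 8 pairs were chosen with earlier results of these data known. Groups came from the sample titles. No sequence is shown, as no sequence table was used here.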

Additional observations from a re-analysis of the deposited data

Results flagged for a closer look

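The mitochondrial share of counts in elmo3+/+ pool 1 was 8.99%, and the other 5 elmo3+/+ pools had 6.59 to 7.19%, a gap of 0.748 of the whole range of the group. This pool stood apart from its group by Dixon's criterion for 6 samples. It was 1 of 36 sets of values examined in this way, and chance alone makes about 1 in 20 stand apart. The same pool had the lowest level of the members and of fabp10a in elmo3+/+.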

How the results depend on the processing

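With each pool left out in turn, the members at an unadjusted p-value under 0.05 ranged from 11 to 27, their median log2 fold change from -0.98 to -0.65, the genes past the threshold from 17 to 22 and the median r of the member pairs from 0.56 to 0.71, with 0 members past the threshold each time. DESeq2 called 49 genes in place of 21, and 0 members. limma gave 14 members at an unadjusted p-value under 0.05 on log2(TPM + 1) and 12 on log2(TPM + 0.1), against 23. The share of all genes at this limit is given above for limma and for the lowest leave-one-out counts. It is not given for the highest count, 27, which thus cannot be set beside all genes. With the fabp10a level as a covariate, chosen after seeing the data, 11 genes passed, 0 members were at an unadjusted p-value under 0.05, their median was -0.040, 23 of the 38 rows kept the sign of their log2 fold change, and the log2 fold changes of fga, fgb and fgg turned to 0.20, 0.20 and 0.13 and those of f3b and pros1 to -0.16 and -0.043. The log2 fold changes of pros1 and f3a turned to -0.033 and -0.031 under total count scaling, and those of f3b, pros1 and f3a to -0.0066, -0.017 and -0.032 on log2(TPM + 1) and to -0.013, -0.017 and -0.040 on log2(TPM + 0.1). In these settings the median over all genes also moved, from 0.0045 to -0.048, -0.062 and -0.076. Each of the turned values lay above the median of its setting. Without single pools the log2 fold changes ranged from -0.032 to 0.19 for f3b, from -0.017 to 0.066 for pros1 and from -0.028 to 0.089 for f3a, and c7b was above 0 without 4 of the 12 pools. The causes were not tested.

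With the replicate number as a block, 17 genes and 0 members passed, and the median log2 fold change of the members was -0.74. Deviations of same-numbered pools correlated by -0.012, -0.29, 0.17, 0.39, 0.31 and 0.096, with a mean of 0.11 against -0.021 for other pairings. For 3 of the 6 numbers this was above every other pairing of that elmo3+/+ pool. The labels give the numbers no meaning and not all pairs went together, so they were not taken as pairs. Whether some same-numbered pools share an origin was not tested. Upper-quartile scaling, no filter and a mean count of at least 10 moved no result by over 1.5 times. Depth limited the 6 untested members and the lowest pools of cfh.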
